A study of Danio rerio with 15 samples.

Results

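Cytochrome P450 genes were examined in RNA sequencing libraries of pronephric ducts, through which the kidney of the zebrafish larva empties. The family comprised every row whose RefSeq accession mapped to a zebrafish symbol beginning with cyp and a digit, with 4 symbols left out by the selection rule, and for each symbol the accession with the most counts was taken. This gave 63 genes out of 18545 gene symbols measured in the series. 1 gene, cyp2u1, had 2 accessions. Of 83 symbols of this pattern in the RefSeq gene table, the other 20 matched no row and are not analysed here.

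All larvae were 72 h post fertilization (hpf) and carried a Na, K-ATPase alpha1A4:GFP transgene, which is active in pronephric epithelia. The mutant group is labelled actl6a knockout and came from incrosses of first-generation carriers of a CRISPR/Cas9-induced mutation, without a statement of the allele or of the number of founders. The sibling group came from the same line and is labelled WT, without a statement of whether heterozygotes were included. 15 embryos per group were digested with collagenase and about 10 duct fragments were picked by their fluorescence. There were 7 sibling and 8 mutant libraries, and since the labels do not say which share a clutch or pool, p-values measure the spread between these libraries.

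P450 enzymes are haem proteins that insert an oxygen atom into small hydrophobic molecules. Most members of families 1 to 3, and some of family 4, act on drugs, pollutants and fatty acids in the endoplasmic reticulum, mainly in liver and gut, and receive electrons from P450 oxidoreductase. Other members make or break down cholesterol, bile acids, steroid hormones, vitamin D and retinoids, several of them in mitochondria with ferredoxin as electron donor. In the kidney, vitamin D hydroxylation is the best known P450 activity.

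Total counts ran from 1583052 to 4013852 per library. Siblings were read under one sequencing index and mutants under another, so index and genotype cannot be told apart. The targeted gene was at 62.8 to 92.4 CPM (counts scaled to 1000000 per library, with a normalization factor) in siblings, against 9.41 to 37.0 CPM in mutants. Libraries are named below by group and replicate number. Mutant replicates 4, 5, 6 and 8 had 25684 to 27413 detected accessions, against 18188 to 21970 in the other mutants and 18841 to 23992 in siblings, where the highest value was that of sibling replicate 1. These mutant libraries and sibling replicate 1 also had the highest total counts, 2623014 to 4013852, against at most 2392247 in any other library. Transcripts of other tissues were also unevenly spread, and fewer cells of a type and less RNA per cell cannot be told apart in such bulk libraries.

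Of 63 P450 genes, 24 passed the filter on low counts. Of these, 6 were higher and 1 was lower in mutants at an adjusted p under 0.05, while 17 were not called. The 6 higher genes were cyp3a65, cyp2aa6, cyp7b1, cyp1a, cyp2x7 and cyp2k16, and the lower gene was cyp27a1.1. Over all 12914 tested accessions 13.6% were called higher and 5.54% lower, against 25.0% and 4.17% of the tested P450 genes. The median log2 fold change (mutant over sibling) was 0.51 over the 24 genes and 0.04 over all tested accessions. Of the 24 values 15 were above 0, against 53.1% over all tested accessions. Some of the 24 genes passed the filter mainly through the mutants, which favours calls of higher and raises the median. Among them were cyp7b1, with 27 counts in all siblings, and cyp1c1, with 264 of its 289 sibling counts in replicate 1. No tested P450 gene had groups free of overlap. Over all tested accessions 1.52% had every mutant above every sibling and 0.782% every mutant below. At shares this low, none among 24 genes shows no difference between the family and all accessions. In the absence of mutant replicates 4, 5, 6 and 8, a check added after the data were seen, cyp3a65 and cyp1a were called higher and no member lower. In that fit 2.93% of all 12887 accessions were called higher and 1.03% lower. The median log2 fold change of the tested members was -0.11 there, against -0.025 over all accessions. With the number of detected accessions as a term in the fit, the member median was -0.12, against 0.03 over all accessions. Leaving out mutant replicate 4, 5, 6 or 8 singly gave member medians of 0.09, 0.10, 0.06 and 0.22. Leaving out any other single library gave 0.17 to 0.52.

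**Figure D1:**
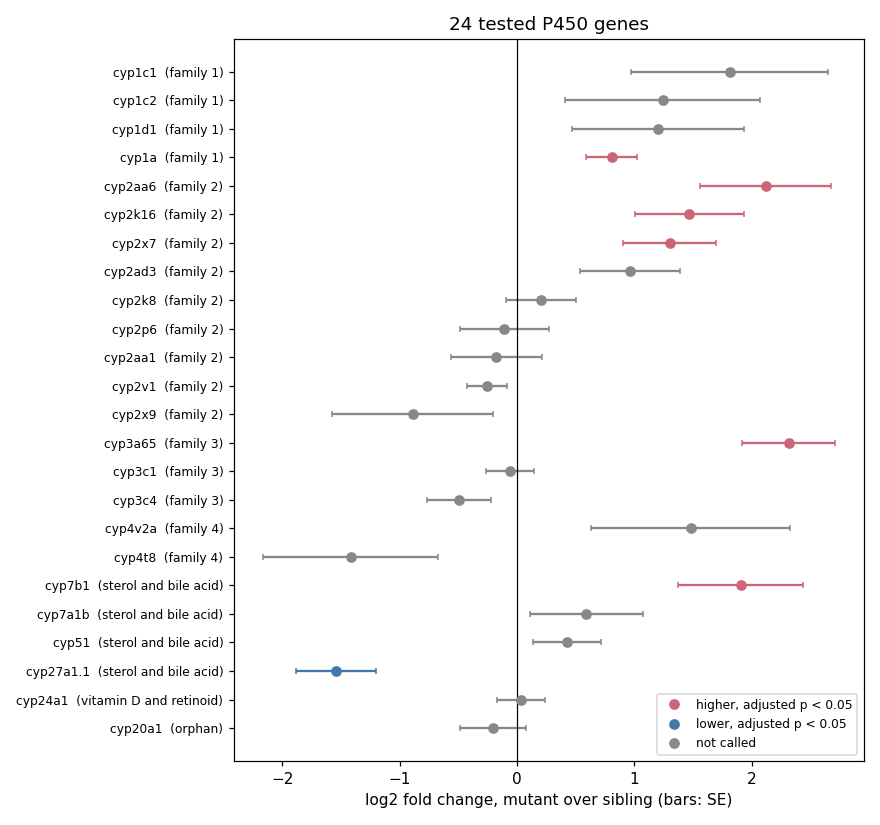
Log2 fold changes (mutant over sibling) of the 24 tested P450 genes with their standard errors, sorted within families. The 6 genes called higher run from 0.81 for cyp1a to 2.31 for cyp3a65, and the gene called lower, cyp27a1.1, is at -1.54.

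Family 3 enzymes were taken first, since cyp3a65 is the zebrafish counterpart of the main drug-metabolizing P450s of human liver and gut, and is known from zebrafish larvae as a gene of intestine and liver. cyp3a65 (NM_001037438.1) was at 5.84, 2.04, 21.3, 24.5, 17.0, 9.11 and 18.3 CPM in siblings 1 to 7 and at 21.1, 75.3, 40.3, 71.9, 57.6, 108, 103 and 55.6 CPM in mutants 1 to 8. 7 of 8 mutant libraries thus lay above every sibling, and mutant replicate 1 lay among them. Siblings had a mean of 14.0 ± 8.42 CPM (SD, n = 7) and mutants one of 66.6 ± 29.5 CPM (SD, n = 8). The log2 fold change was 2.31 (edgeR adjusted p = 0.000983, SE 0.39). It was called under all 24 alternative settings, with log2 fold changes from 2.06 to 2.57.

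The related cyp3c1 and cyp3c4, which lie in one run of 4 neighbouring cyp3c genes, were not called. cyp3c1 (NM_212673.1) had sibling levels of 120.0 to 167 CPM, whereas its mutant levels were 201, 188, 166, 76.1, 94.6, 109.8, 162 and 80.3 CPM. The mutant libraries were split, with 2 above every sibling and 4 below, and the 4 low ones were replicates 4, 5, 6 and 8. Its log2 fold change was -0.06 (edgeR adjusted p = 0.858, SE 0.20), and without those 4 libraries, or with the number of detected accessions as a term, it was 0.31 and still not called. cyp3c4 had means of 34.0 ± 11.4 CPM (siblings) and 23.98 ± 9.86 CPM (mutants), with a log2 fold change of -0.49 (edgeR adjusted p = 0.219, SE 0.27).

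Markers of intestine were higher in mutants in the same comparison as cyp3a65. Of a list of 26 intestinal epithelium genes, 23 were measured and 16 tested, with 10 higher and 0 lower and a median log2 fold change of 1.98. Over all tested accessions 13.6% were called higher and 5.54% lower. The summed level of the list was 1071 to 1374 CPM in siblings and 1590.3 to 4977 CPM in mutants, so all mutants lay above all siblings, mutant replicate 4 furthest. The highest CPM of the list, which is not corrected for transcript length, belonged to cdh17, an adhesion gene also found in the pronephros, at a sibling mean of 883 CPM, and the next over all libraries to the fatty acid carrier fabp2, at 99.0 CPM. The smallest p-values belonged to fabp1b.1, a fatty acid carrier of the gut (0 to 2.04 CPM in siblings, 93.0 to 1265 CPM in mutants), to cdx1b, a regulator of intestinal fate (0 to 2.67 and 24.8 to 235 CPM), and to fabp6, a bile acid carrier (0 to 2.40 and 16.0 to 307 CPM). With 13, 8 and 17 counts in all siblings these 3 passed the filter through the mutants, and their fitted fold changes, which depend on the prior count, are not given. The called genes rbp2a and apoa4b.1, with 5 and 42 counts in all siblings, also passed mainly through the mutants. Such passing favours calls of higher and raises the median of the list. The part of intestinal transcripts in the level of cyp3a65 was not tested.

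**Figure D2:**
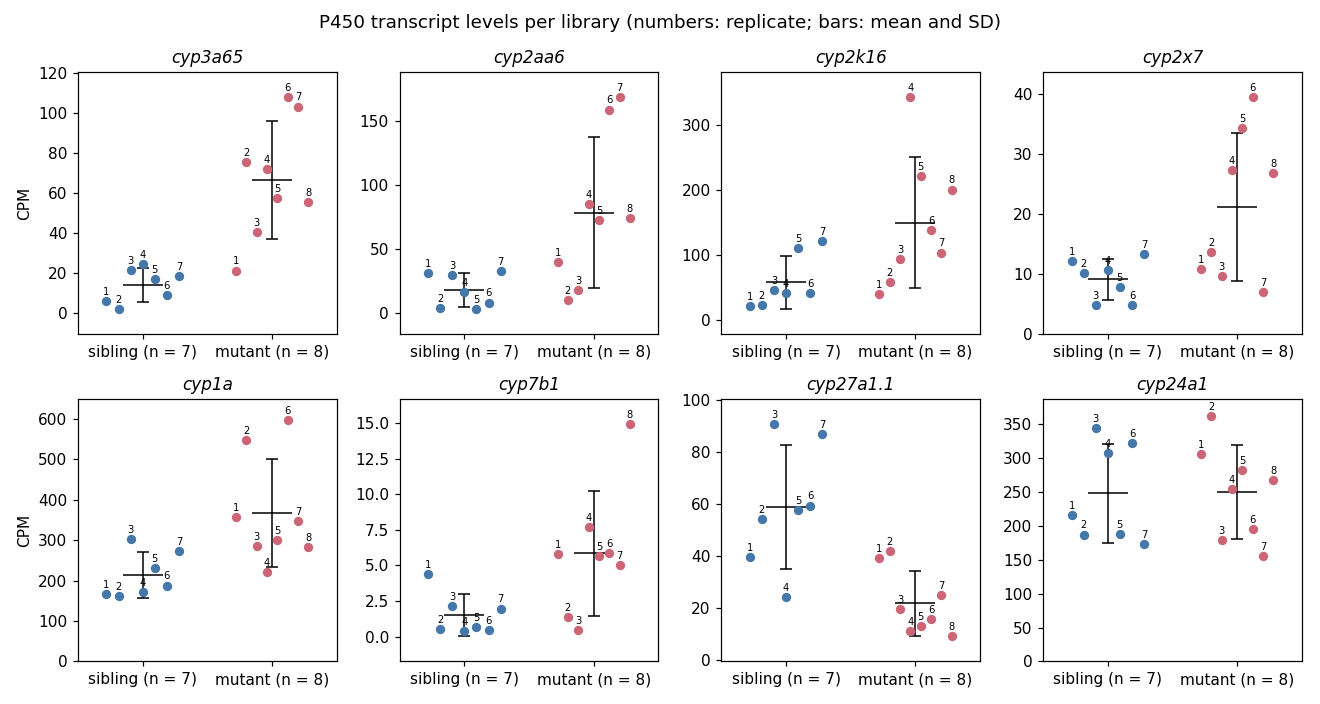
CPM of 8 P450 genes in each library, with replicate numbers beside the points and bars for mean and SD. cyp3a65 is above every sibling in 7 of 8 mutants, cyp27a1.1 is below every sibling in 5 of 8, and cyp24a1 has similar means of 248 and 250.1 CPM.

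Family 1 enzymes are best known as targets of the dioxin receptor, which cyp1a reports in many fish tissues. cyp1a (NM_131879.2) was detected in every library, at 166, 162, 301, 171, 232, 188 and 274 CPM in siblings 1 to 7. In mutants 1 to 8 it was at 356, 546, 285, 221, 299, 596, 348 and 284 CPM. 4 of 8 mutant libraries, replicates 1, 2, 6 and 7, exceeded every sibling, and the other 4 lay within the sibling range. The means of 213 ± 56.6 and 367 ± 133 CPM corresponded to a log2 fold change of 0.81 (edgeR adjusted p = 0.0174, SE 0.22). Among the fits that left out 1 library, the call was lost without sibling replicate 2, where the log2 fold change was 0.68 (edgeR adjusted p = 0.0541), and it was kept in the fit without mutant replicates 4, 5, 6 and 8, at 0.80 (edgeR adjusted p = 0.0448).

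The cyp1a relatives cyp1c1 and cyp1c2, which are direct neighbours, and cyp1d1 varied widely and were not called. cyp1c1 was at 77.1, 1.02, 0, 2.45, 4.58, 2.40 and 2.47 CPM in siblings 1 to 7 and 0, 5.48, 21.7, 63.2, 88.2, 93.7, 17.0 and 117 CPM in mutants 1 to 8. Sibling replicate 1 and mutant replicates 4, 5, 6 and 8 were high, and the other libraries were at most 21.7 CPM. cyp1c2 (sibling replicate 1 at 54.6 CPM) and cyp1d1 (at 44.4 CPM) were likewise highest among siblings in replicate 1 and highest among mutants in replicates 4, 5, 6 and 8. The log2 fold changes were 1.81 (edgeR adjusted p = 0.139, SE 0.84) for cyp1c1, 1.24 for cyp1c2 and 1.201 for cyp1d1. Without sibling replicate 1 all of these 3 were called higher, at 4.65, 3.40 and 2.96 (edgeR adjusted p = 0.000669, 0.0111 and 0.00948). That library held 264 of 289, 187 of 219 and 152 of 189 of their sibling counts. Without it they passed the filter mainly through the mutants, which favours calls of higher, and the sizes depend on the prior count. cyp1c1 and cyp1c2 passed the filter in only 10 of 15 fits that left out 1 library. With voom quality weights all of these 3 were called higher too (4.54, 4.59 and 3.73). With the number of detected accessions as a term their directions turned, to -0.37, -1.62 and -1.01, with no call.

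Endothelial and blood transcripts were high in the same libraries. The summed endothelium list was at 871, 28.1, 32.0, 27.4, 22.9, 37.4 and 65.2 CPM in siblings 1 to 7 and 101, 138, 202, 595, 1212, 677, 209 and 892 CPM in mutants 1 to 8. Its 7 tested genes had a median log2 fold change of 1.53, and none was called in the main edgeR fit or by DESeq2 (4 and 3 had an unadjusted p under 0.05), while 6 were higher with voom quality weights. Without sibling replicate 1 edgeR called all 7 higher, with a median of 4.27. As the list summed to at most 65.2 CPM in the other siblings, several of its genes passed the filter there mainly through the mutants. Such passing favours calls of higher and raises the median. With the number of detected accessions as a term the median was -0.30, with no call. plvapb and sox7, which had the highest CPM of the list, had sibling means of 51.2 and 26.1 CPM. The erythrocyte list was at 2679 CPM in sibling replicate 1 and at most 233 CPM in the other siblings. Of its 7 tested genes 1 was called higher in the main fit and 6 without sibling replicate 1. Over all tested accessions the share called higher was 13.6% in the main fit, 23.9% with voom quality weights and 15.8% without sibling replicate 1. In both lists the 5 libraries with high cyp1c1 were the 5 highest. Their part in the levels of cyp1c1, cyp1c2 and cyp1d1 was not tested. The remaining member of the family, cyp1b1, had 6 counts in all siblings and 22 in all mutants, 16 of these in mutant replicate 6, and was not tested.

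Partners of the dioxin pathway were examined as a list of 11 genes, of which 8 were measured and 4 tested. Of these 4, 1 was called higher, beside 13.6% of all tested accessions. The gene called was ahr2, the receptor that mediates most dioxin effects in zebrafish. ahr2 was at 97.2, 75.1, 69.4, 57.7, 62.8, 67.2 and 65.7 CPM in siblings 1 to 7 and at 61.2, 76.7, 101, 118, 123, 118, 114 and 141 CPM in mutants 1 to 8, and 6 of 8 mutants exceeded every sibling. Its log2 fold change was 0.63 (edgeR adjusted p = 0.0175, SE 0.17), and no gene of the list was called without mutant replicates 4, 5, 6 and 8 together or with the number of detected accessions as a term, where 1 had an unadjusted p under 0.05 in each. Of the fits that left out 1 library, those without mutant replicate 4, 5, 6 or 8 called no gene of the list. Nor did those without sibling replicate 3, 4, 5, 6 or 7, while each remaining one called 1 higher. The receptor's repressor ahrra, itself an induced target, was at or below 0.876 CPM in siblings and at 0.728, 9.58, 0.885, 34.7, 11.8, 18.0, 3.005 and 28.7 CPM in mutants, but it did not pass the count filter.

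Family 2, the largest with 28 genes, had 9 tested members, of which 3 were higher and none lower, beside 13.6% and 5.54% of all tested accessions, with a median log2 fold change of 0.20. 2 of these 3 calls, those of cyp2k16 and cyp2x7, were lost in 9 of 15 fits that left out 1 library. Many of its members lie next to each other in the genome, in an order taken from the RefSeq table. How reads shared by such related neighbours were counted is not stated, which makes their values uncertain.

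In the cyp2aa genes, a fish-specific group, cyp2aa6 (NM_001199969.2) rose. It was at 31.5, 3.58, 29.9, 16.4, 3.27, 8.15 and 32.6 CPM in siblings 1 to 7 and 40.1, 10.3, 17.7, 85.0, 73.0, 159, 169 and 74.3 CPM in mutants 1 to 8. 6 of 8 mutants were above every sibling, and mutant replicates 2 and 3 lay within the sibling range. The means were 17.9 ± 13.3 and 78.5 ± 59.24 CPM, and the log2 fold change was 2.12 (edgeR adjusted p = 0.0148, SE 0.56). The call was lost without mutant replicates 4, 5, 6 and 8, at 1.64 (edgeR adjusted p = 0.227), and with the number of detected accessions as a term, at 1.62 (edgeR adjusted p = 0.124). By contrast cyp2aa1, in another run of cyp2aa genes, had sibling levels of 23.6 to 104 CPM, mutant levels of 9.58 to 96.8 CPM and a log2 fold change of -0.17 (edgeR adjusted p = 0.780, SE 0.39).

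The cyp2k genes form a run of 8 consecutive genes, all measured, of which cyp2k16 and cyp2k8 were tested. cyp2k16 (NM_001005963.2) was at 21.6, 24.03, 47.0, 42.5, 111, 42.2 and 122 CPM in siblings 1 to 7 and 40.8, 58.9, 94.3, 343, 222, 138, 104 and 201 CPM in mutants 1 to 8, so that mutant replicates 4, 5, 6 and 8 exceeded every sibling. Its log2 fold change was 1.47 (edgeR adjusted p = 0.0355, SE 0.46), a call that was lost in 9 of 15 fits that left out 1 library (1.15 to 1.70 over all 15) and without mutant replicates 4, 5, 6 and 8 together, at 0.41. With the number of detected accessions as a term it was 0.47, also with no call. The adjacent cyp2k8 had means of 58.7 ± 25.2 CPM (siblings) and 66.8 ± 28.1 CPM (mutants) and a log2 fold change of 0.20 (edgeR adjusted p = 0.661, SE 0.30).

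Further genes of the run, cyp2k19, cyp2k20 and cyp2k21, did not pass the filter and had their highest value in mutant replicate 4. cyp2k19 had at most 1.23 CPM in a sibling and 0.728, 0, 2.21, 41.0, 27.3, 5.88, 0.501 and 20.9 CPM in mutants 1 to 8. The high values belonged to mutant replicates 4, 5 and 8, which were also the 3 highest mutants for cyp2k20 (14.8, 8.9995 and 6.31 CPM) and cyp2k21 (25.8, 9.77 and 6.59 CPM). cyp2k20 had at most 1.64 CPM in a sibling, but cyp2k21 reached 10.6 CPM in sibling replicate 4. cyp2k6 did not share this, with its highest values in mutant replicate 1 (23.3 CPM) and sibling replicate 1 (14.6 CPM). cyp2k17 had 35 counts and cyp2k18 had 2 counts over all libraries.

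A run of 11 neighbouring family 2 genes holds cyp2n13 and the cyp2ad, cyp2p, cyp2v and cyp2j genes, relatives of the mammalian epoxygenases that act on arachidonic acid. 9 of the 11 were members, and cyp2ad3, cyp2v1 and cyp2p6 were tested. cyp2ad3 was at 97.2, 22.0, 25.1, 44.2, 35.3, 14.9 and 36.1 CPM in siblings 1 to 7 and 21.1, 26.01, 52.2, 107, 129.6, 105, 48.1 and 110.4 CPM in mutants 1 to 8. Its high libraries were again sibling replicate 1 and mutant replicates 4, 5, 6 and 8, and its log2 fold change of 0.96 (edgeR adjusted p = 0.120, SE 0.42) passed the threshold only without sibling replicate 1 (1.38, edgeR adjusted p = 0.0226) and with voom quality weights (1.57). Its direction turned without mutant replicates 4, 5, 6 and 8 (-0.16) and with the number of detected accessions as a term (-0.14).

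cyp2v1 was even among siblings, with levels of 28.1 to 36.0 CPM. In mutants it was at 31.3, 15.7, 21.7, 25.997, 25.97, 27.05, 36.1 and 24.7 CPM, below every sibling in 6 of 8 libraries, and its log2 fold change of -0.26 (edgeR adjusted p = 0.305, SE 0.17) was not called. For cyp2p6 the log2 fold change was -0.11 (edgeR adjusted p = 0.860, SE 0.38), with means from 8.48 ± 3.54 to 7.02 ± 4.65 CPM. With the number of detected accessions as a term it was called lower, at -1.28 (edgeR adjusted p = 0.0177). The direction of cyp2p6 was turned by leaving out sibling replicate 1 (0.17) or mutant replicate 3 (0.01) and with voom quality weights (0.15). cyp2n13 was seen mainly in mutant replicate 4, at 28.8 CPM, against at most 3.15 CPM elsewhere.

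Of the run of 4 cyp2x genes, cyp2x7 (NM_001256177.1) was higher. Its levels were 12.3, 10.2, 4.80, 10.6, 7.85, 4.80 and 13.3 CPM in siblings 1 to 7 and 10.9, 13.7, 9.74, 27.4, 34.5, 39.6, 7.01 and 26.9 CPM in mutants 1 to 8. Mutant replicates 4, 5, 6 and 8 stood at or above 26.9 CPM, and the 4 other mutants overlapped with siblings or, in replicate 2, lay just above them. The log2 fold change was 1.301 (edgeR adjusted p = 0.0302, SE 0.39). The call was lost in 9 of 15 fits that left out 1 library (1.11 to 1.43), and without mutant replicates 4, 5, 6 and 8 the value was 0.04. With the number of detected accessions as a term it was 0.46, again with no call. cyp2x9 was lower on average without a call, from 15.3 ± 13.3 to 6.92 ± 9.01 CPM, a log2 fold change of -0.89 (edgeR adjusted p = 0.382, SE 0.69).

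Family 4 enzymes hydroxylate the ends of fatty acids, and 2 of 4 were tested, without a call. cyp4t8 was uneven within each group, at 45.5, 1.53, 68.8, 48.3, 54.3, 1.44 and 3.95 CPM in siblings 1 to 7 and 0.728, 1.37, 53.6, 7.03, 2.83, 14.5, 7.01 and 7.17 CPM in mutants 1 to 8. 4 siblings and mutant replicate 3 were at 45.5 CPM or more, and all other libraries were at most at 14.5 CPM. The log2 fold change of -1.42 (edgeR adjusted p = 0.195, SE 0.75) became -2.30 (edgeR adjusted p = 0.0390) without that library. cyp4v2a, related to the human gene behind a crystalline retinal dystrophy, was high in mutant replicates 4 and 5 (91.1 and 49.6 CPM), with a log2 fold change of 1.48 (edgeR adjusted p = 0.233, SE 0.85) and a direction that turned without mutant replicates 4, 5, 6 and 8 (-1.93) and with the number of detected accessions as a term (-0.58).

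Among 13 genes of sterol and bile acid metabolism, 4 were tested, of which cyp27a1.1 was lower and cyp7b1 higher. Of all tested accessions 5.54% were called lower and 13.6% higher. cyp27a1.1 (XM_002663399.5) is related to the mitochondrial hydroxylase that oxidizes the sterol side chain in mammals. It was at 39.7, 54.2, 90.7, 24.1, 57.6, 59.5 and 87.0 CPM in siblings 1 to 7 and at 39.3, 41.8, 19.5, 11.2, 12.9, 15.7, 25.0 and 9.17 CPM in mutants 1 to 8. 5 of 8 mutants lay below every sibling, and mutant replicates 1 and 2 were highest among mutants and within the sibling range. The group means were 59.0 ± 23.8 CPM (SD, n = 7) and 21.8 ± 12.6 CPM (SD, n = 8), a log2 fold change of -1.54 (edgeR adjusted p = 0.00572, SE 0.34). It was called in all 15 fits that left out 1 library (-1.75 to -1.45), but not without mutant replicates 4, 5, 6 and 8 together (-0.98, edgeR adjusted p = 0.137).

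As a sum, transcripts that mark pronephric segments were lowest in mutant replicates 4, 5, 6 and 8. Of 15 tested genes of that list, 1 was higher and 3 were lower, with a median log2 fold change of -0.30. The shares over all tested accessions were 13.6% higher and 5.54% lower. Without mutant replicates 4, 5, 6 and 8, 1 was higher and 0 were lower (4 with an unadjusted p under 0.05). The lower ones were the solute transporters slc5a12 (-3.69), slc13a1 (-2.28) and slc20a1a (-1.41), and the higher one was the transcription factor evx1 (3.44). With 108 counts in all siblings, evx1 passed the filter mainly through the mutants. The summed list was at 3460.4 to 5015 CPM in siblings, with 1773, 2196, 2264 and 2041 CPM in mutant replicates 4, 5, 6 and 8 and 5696, 4871, 3889 and 4454 CPM in mutant replicates 1, 2, 3 and 7. Its part in the lower level of cyp27a1.1 was not tested.

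cyp7b1, an oxysterol hydroxylase of the alternative bile acid route, was a gene of few counts. It was at 4.38, 0.511, 2.13, 0.409, 0.654, 0.480 and 1.98 CPM in siblings 1 to 7 and 5.83, 1.37, 0.443, 7.73, 5.66, 5.88, 5.01 and 14.9 CPM in mutants 1 to 8. 6 of 8 mutants exceeded every sibling, but 4 of 7 sibling values were under the floor of 3 counts (0.747 to 1.90 CPM over the libraries), so the size of the log2 fold change of 1.91 (edgeR adjusted p = 0.0148, SE 0.53) is uncertain. With 27 counts in all siblings, 15 of them in replicate 1, cyp7b1 passed the count filter mainly through the mutants. It passed in 7 of 15 fits that left out 1 library and was called in each of those. They were the fits without mutant replicate 2 or without 1 of sibling replicates 2 to 7. No fit without another mutant library or without sibling replicate 1 tested cyp7b1, so its dependence on those is not known. The call was lost with the number of detected accessions as a term, at 0.78 (edgeR adjusted p = 0.442). cyp51, which makes an early intermediate of cholesterol from lanosterol, had means of 49.7 ± 29.5 CPM (siblings) and 66.9 ± 19.3 CPM (mutants), with a log2 fold change of 0.43 (edgeR adjusted p = 0.315, SE 0.29). cyp7a1b had a log2 fold change of 0.59 (edgeR adjusted p = 0.404, SE 0.48) and was high in mutant replicate 1 alone, at 55.4 CPM.

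Several genes of the classic bile acid pathway did not pass the filter and had most of their counts in a few mutant libraries. cyp7a1, its rate-limiting enzyme, was at 4.67, 0.511, 0.534, 2.04, 0.654, 0 and 0 CPM in siblings 1 to 7 and 1.46, 3.42, 0, 69.1, 18.3, 16.9, 0.501 and 14.9 CPM in mutants 1 to 8. cyp8b1.2, whose family sets the balance of bile acids, was at 0 to 5.93 CPM in siblings and at 25.997, 7.20, 6.66 and 12.04 CPM in mutant replicates 4, 5, 6 and 8. cyp27a2 was at or below 1.17 CPM in siblings and at 0, 2.74, 1.77, 39.8, 12.9, 7.06, 5.01 and 18.3 CPM in mutants 1 to 8. In each of these 3 genes mutant replicate 4 was highest and mutant replicates 1, 2 and 3 were at or below 3.42 CPM. The family 4 gene cyp4v2b was highest in mutant replicate 4 too, with 69.3, 47.3 and 34.1 CPM in mutant replicates 4, 5 and 8 and at most 1.92 CPM in siblings.

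Of the 39 members that were not tested, 17 had at least 100 counts in all. Their highest library was mutant replicate 4 in 14 genes, another mutant in 2 and a sibling in 1, cyp46a1.3, which encodes a cholesterol hydroxylase of the brain type. Genes that fail the filter but reach 100 counts tend to be concentrated in few libraries. Such a limit on raw counts also favours deep libraries, and mutant replicate 4 had the most counts, 4013852. The share over all untested accessions was not counted, so these numbers describe no trait of P450 genes. In a fit with no filter on low counts, 8 of the 39 were called, all higher (edgeR adjusted p from 0.000656 to 0.0288), where 9.12% of 33068 accessions were called higher and 2.85% lower. They were cyp7a1, cyp27a2, cyp27c1, cyp39a1, cyp2aa3, cyp2k19, cyp2k20 and cyp4v2b. Since the siblings were near 0 for most of them, their fitted fold changes depend on the prior count and are not given.

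Liver transcripts were higher in the same mutant libraries. Of 19 liver genes, 15 were measured and 5 tested, with 2 higher and 1 lower and a median log2 fold change of 1.37. The shares over all tested accessions were 13.6% higher and 5.54% lower. Without mutant replicates 4, 5, 6 and 8 together, 1 of the 5 was higher and 0 were lower. The same counts were found with the number of detected accessions as a term. The summed list was at 32.6 to 240.1 CPM in siblings and at 159.5, 395, 229.8, 461, 439, 543, 132 and 460.4 CPM in mutants 1 to 8, with mutant replicates 4, 5, 6 and 8 highest. Complement c3a.1 (4.20) and transferrin tfa (2.91) were higher and prothrombin f2 (-1.95) was lower. No liver gene was called lower with DESeq2, without mutant replicate 4, 5, 6, 7 or 8 singly, or without sibling replicate 1. With 71 and 68 counts in all siblings, c3a.1 and tfa passed the filter mainly through the mutants, which favours calls of higher. fgb and apoa2, which had the highest CPM of the list over all libraries, had sibling means of 48.9 and 31.1 CPM, while the defining hepatocyte marker fabp10a was at or below 1.43 CPM in every library. Their part in the levels of cyp7a1, cyp8b1.2, cyp27a2, cyp2k19 and cyp4v2b was not tested.

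**Figure D3:**
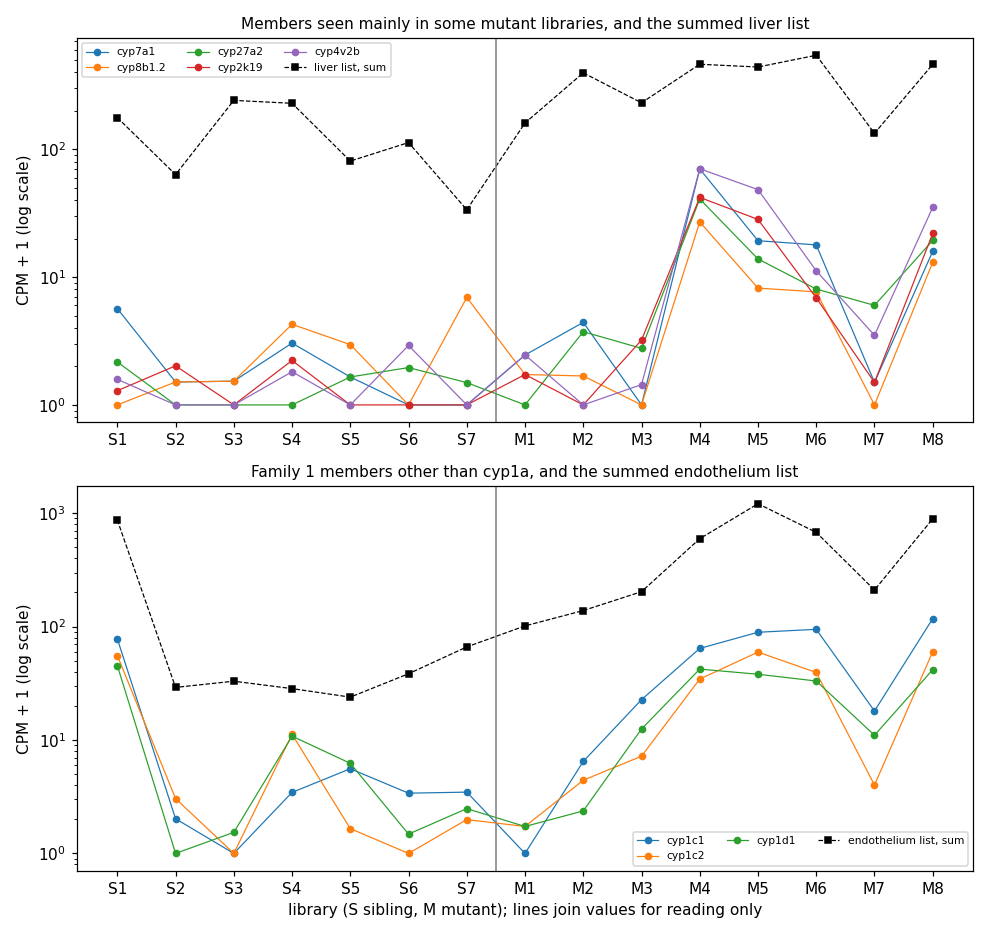
CPM + 1 on a log scale in each library for 5 members that did not pass the count filter with the summed liver list (upper panel), and for cyp1c1, cyp1c2 and cyp1d1 with the summed endothelium list (lower panel). The upper 5 genes are highest in mutant replicate 4, and the lower ones are also high in sibling replicate 1.

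2 nuclear receptor genes that act on bile acid enzymes in mammals were called higher. nr0b2a, a repressor of cyp7a1 there, was at 0 to 3.84 CPM in siblings and 1.46, 10.3, 30.5, 84.5, 111, 70.2, 27.5 and 87.7 CPM in mutants 1 to 8 (edgeR adjusted p = 5.19e-05). nr5a2, an activator of the same gene, was at 0 to 9.93 CPM in siblings, where 34 of its 41 counts lay in 1 library, and rose to 3.64 to 107 CPM (edgeR adjusted p = 0.000372). As most siblings were near 0, both passed the filter mainly through the mutants, and their fitted fold changes are not given. nr0b2a and nr5a2 were the called genes among 11 tested of a list of 19 nuclear receptors and liver factors, whose median log2 fold change was 0.42. The share called higher over all tested accessions was 13.6%. When any one of mutant replicates 2 to 8 was left out, 10 genes of the list passed the filter instead of 11, and 1 was higher. Without mutant replicate 5, 1 gene was also lower.

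Of 3 vitamin D and retinoid enzymes, 1 was tested, cyp24a1, and it was not called. cyp24a1 (NM_001089458.1), the mitochondrial enzyme that inactivates vitamin D, was at 216, 187, 344, 307, 188, 322 and 172 CPM in siblings 1 to 7 and 306, 362, 178, 254, 282, 195, 156 and 267 CPM in mutants 1 to 8. The groups overlapped almost fully, and the log2 fold change was 0.03 (edgeR adjusted p = 0.924, SE 0.20), from -0.12 to 0.12 under other settings. The activating enzyme cyp27b1 had 3 counts in all siblings and 4 in all mutants, too few to detect a difference. cyp27c1, which forms dehydroretinoids, was at 0 to 1.96 CPM in siblings and 1.46, 3.42, 3.099, 11.01, 19.3, 11.8, 1.00 and 11.8 CPM in mutants 1 to 8, with replicates 4, 5, 6 and 8 highest, and did not pass the filter.

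None of 6 steroid hormone enzymes passed the filter. cyp11a1.1, whose family cleaves the cholesterol side chain, had 20 counts in all siblings and 26 in all mutants, and its neighbour cyp11a1.2 had 9 counts, all in mutants. cyp21a2 had 17 and 33 counts and cyp17a2 had 2, in mutants. The aromatase genes cyp19a1a and cyp19a1b had 11 and 20 counts in siblings and 57 and 99 in mutants. By contrast star, which carries cholesterol to the first of these enzymes in steroid-forming cells, rose from 0 to 2.04 CPM in siblings to 2.19, 5.48, 8.41, 65.8, 20.6, 29.4, 16.5 and 42.7 CPM in mutants 1 to 8 (edgeR adjusted p = 0.000155). The adrenal-type regulator nr0b1 rose as well, by 1.68. Of 6 measured genes of the interrenal list these 2 were the ones tested, star through its mutant counts (it had 9 counts in all siblings), where over all accessions 13.6% were called higher. The remaining 4 had means of at most 3.89 CPM in either group, with nr5a1a at 10 counts in siblings and 1 in mutants. The orphan enzyme cyp20a1 was at 18.7 ± 7.53 CPM (siblings) and 15.5 ± 4.01 CPM (mutants), with a log2 fold change of -0.21 (edgeR adjusted p = 0.634, SE 0.28).

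**Figure D4:**
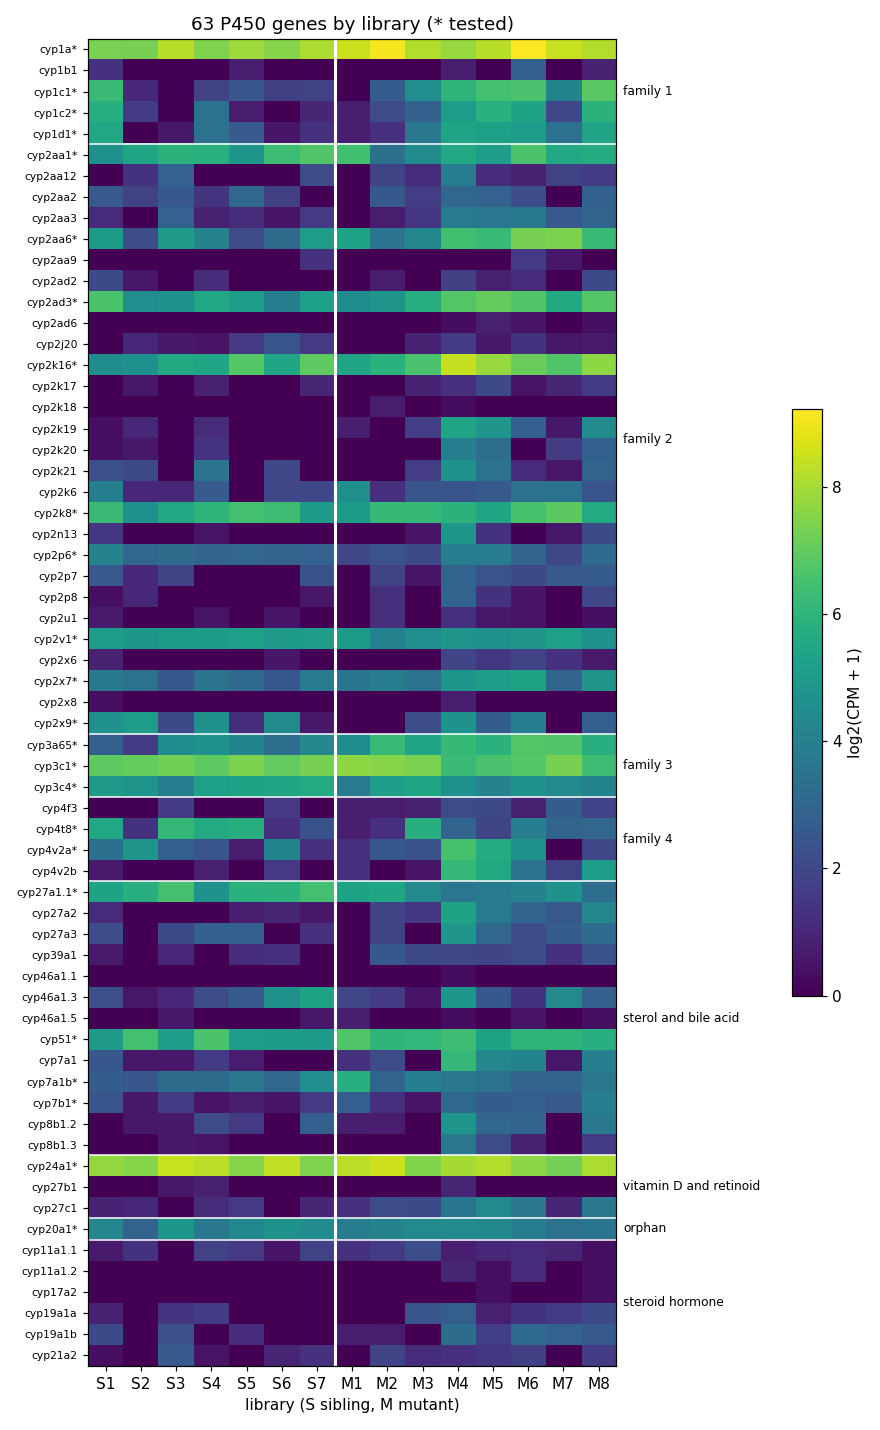
Log2(CPM + 1) of all 63 P450 genes in 7 sibling (S) and 8 mutant (M) libraries, grouped by family or role, with tested genes marked by an asterisk. Among the untested genes with at least 100 counts, 14 of 17 have their highest value in mutant replicate 4, the library with the most counts. The share over all untested accessions was not counted.

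Electron donors and haem genes were mostly not called. Of 13 listed genes 11 were measured and 10 tested, with 1 higher and 0 lower and a median log2 fold change of 0.17. Among all tested accessions 13.6% were higher and 5.54% lower. The called gene was pora, a P450 oxidoreductase that passes electrons to the microsomal members, at 19.0, 15.8, 12.3, 16.4, 7.85, 8.15 and 14.8 CPM in siblings 1 to 7 and 10.9, 17.1, 17.7, 36.8, 40.1, 22.0, 25.5 and 31.5 CPM in mutants 1 to 8. 5 of 8 mutants exceeded every sibling, and the log2 fold change was 0.97 (edgeR adjusted p = 0.0309, SE 0.29). No gene of the list was called when mutant replicate 4, 5, 6 or 8 was left out singly. The same held without sibling replicate 2, 3, 4, 5, 6 or 7, with accessions summed per symbol and with no filter. In each remaining fit that left out 1 library, 1 gene of the list was higher. The ferredoxin gene fdx1, which serves mitochondrial members such as cyp24a1 and cyp27a1.1, had a log2 fold change of 0.02 (edgeR adjusted p = 0.934, SE 0.17).

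Conjugating enzymes, which act on products of P450 reactions, had 5 higher and 0 lower among 10 tested of 23 listed genes, with a median log2 fold change of 1.32. Over all accessions 13.6% were higher and 5.54% lower. The summed list was at 460.0 to 833 CPM in siblings and at 649.8, 721, 709.7, 2547, 1343, 1319, 833 and 1446 CPM in mutants 1 to 8, highest in replicates 4, 5, 6 and 8. Without those 4 libraries 1 of the 10 tested genes was higher, and with the number of detected accessions as a term 2 were. The smallest p-value was that of the sulfotransferase sult2st2, at 38.2, 17.4, 23.5, 23.3, 20.9, 24.9 and 25.2 CPM in siblings 1 to 7 and 90.3, 67.1, 96.1, 594, 277, 257, 119 and 358 CPM in mutants 1 to 8. All 8 mutants lay above all siblings, with mutant replicate 4 highest, and the log2 fold change was 3.26 (edgeR adjusted p = 0.000270, SE 0.47). The glutathione transferases gstm.3 (1.95) and gstp1.1 (3.04) followed. gstp1.1 had 118 counts in all siblings, 60 of them in replicate 7, and passed the filter mainly through the mutants, which favours a call of higher.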

How the data were processed

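RNA was measured in 7 sibling and 8 mutant libraries. The files deposited hold raw counts as whole numbers, a row per RefSeq accession and a column per library, in 2 tables for 2 sequencing indexes, per the file headers. Per the submitters' processing notes, cutadapt, FastQC, STAR, featureCounts, edgeR and the build GRCz11 were used. Their settings, and whether multiply mapped reads were counted, are not given in the sources used here. An accession listed in 1 table only was given 0 in the other. Symbols came from a RefSeq table of the assembly GRCz12tu, used for names and gene order (20452 of 33298 accessions matched, version ignored).

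Mutants were tested against siblings in edgeR 4.0.16 (R 4.3.3), with TMM factors of 0.867 to 1.12, filterByExpr, glmQLFit with robust estimation, and glmQLFTest. P-values were adjusted by Benjamini-Hochberg over 12914 accessions, with a threshold of 0.05. Standard errors (SE) were derived as |log2 fold change|/√F. CPM are counts per 1000000 counts of a library, after multiplying its total by the TMM factor. CPM are not corrected for transcript length, and order by CPM within marker lists served only to choose which genes are named. A floor of 3 counts, 0.747 to 1.90 CPM, covers counting error only.

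Alternatives used DESeq2 1.42.0, limma 3.58.1, other filters, library exclusions, a replicate block and a term for detected accessions. The family, the lists and the tests were chosen with earlier results of these data known. All tested members, and from each list up to 3 called genes with the smallest p and the 2 markers with the highest CPM, were eligible for naming. Untested members, fdx1, nr5a1a, ahrra and fabp10a were named after their values were seen. Figures used matplotlib 3.10.9.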

Additional observations from a re-analysis of the deposited data

Results flagged for a closer look

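The highest and the lowest library of each group were examined with Dixon's test (95%, log2 CPM), for 24 tested members in each genotype. Of 48 such groups 3 were marked, where chance gives about 2.4. cyp1c1 in sibling replicate 1, at 77.1 CPM, stood far above the other siblings, which were at 0 to 4.58 CPM. cyp2p6 in the same library, at 16.3 CPM, stood above a range of 6.42 to 8.54 CPM. cyp7a1b in mutant replicate 1, at 55.4 CPM, stood above a range of 6.66 to 14.6 CPM.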

How the results depend on the processing

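The count of members called higher, 6, was within 1.5 times of itself with DESeq2 (6), with its size factors in edgeR (6), with accessions summed per symbol (6) and with a mean of at least 5 CPM (9, of 30 tested). It was 10 with voom quality weights, 13 of 63 with no filter (median log2 fold change of all accessions 0.37, against 0.04), 2 with the number of detected accessions as a term, 3 with the replicate block, 1 at an adjusted p under 0.01 and 2 without mutant replicates 4, 5, 6 and 8 together. Leaving out 1 library gave 3 to 8, with 3 without mutant replicate 4, 5, 6 or 8 and 8 without sibling replicate 1. The count called lower, 1, was 2 with detected accessions as a term, 0 without the 4 mutant libraries and 1 to 2 with 1 library left out. Over all accessions the 2476 calls became 5566, 3960, 1334, 1357, 1031 and 511 under those settings, in the order voom, no filter, detected accessions, block, stricter threshold and 4 libraries left out, and 1621 to 3390 with 1 library left out (1621 without mutant replicate 8). The causes were not tested, apart from the construction of the settings with fewer libraries or another threshold. For the 24 single genes, 484 values under other settings kept their call and direction, 31 lost the call, 10 gained one, none that was called changed direction and 26 uncalled values changed sign. Replicate numbers showed no sign of pairing the libraries. The deviations of same-numbered libraries from their group means had correlations from -0.54 to 0.26, and no sibling library correlated best with the mutant of its own number. These correlations cannot decide whether libraries share a clutch, which the labels do not state. With the replicate block the calls of cyp1a, cyp7b1 and cyp2x7 were lost (0.81, 1.62 and 1.11). Depth limits members of few counts: 22 of the 39 untested members had fewer than 100 counts over all libraries.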

Other observations

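The number of P450 genes with at least 1 count was 37 to 49 per sibling library and highest there in replicate 1. In mutants it was 33, 43, 43 and 45 in replicates 1, 2, 3 and 7 and 61, 56, 56 and 58 in replicates 4, 5, 6 and 8. Mutant replicates 4, 5, 6 and 8 and sibling replicate 1 also had the highest total counts. The part of depth in the number of detected genes was not tested. The summed level of the 63 genes was 907 to 1372 CPM in siblings and 1260 to 2229 CPM in mutants, with no test made of this sum.

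Marker lists of other tissues are given as values, beside 13.6% called higher and 5.54% called lower over all tested accessions. Leukocyte genes had 3 higher and 0 lower of 3 tested, with the lysozyme gene lyz at 0 to 2.67 CPM in siblings and 6.85 to 139 CPM in mutants, and a summed list of 0.494 to 46.7 CPM in siblings and 11.7 to 359.8 CPM in mutants. In all siblings lyz had 13 counts, while coro1a and lcp1 had 55 and 95, of which 43 and 88 lay in replicate 1. These 3 genes thus passed the filter mainly through the mutants, which favours calls of higher. Epidermis genes had 6 higher and 0 lower of 12 tested, with sums of 421 to 2417 and 1273 to 11294 CPM and krt4 and icn as the genes of highest CPM, at sibling means of 265 and 262 CPM. None of these 12 was called with the number of detected accessions as a term or without mutant replicates 4, 5, 6 and 8. In those fits 5 and 6 had an unadjusted p under 0.05, and 7.29% and 2.93% of all accessions were called higher. DESeq2 called 10 of the 12 higher and 1 lower. The exocrine pancreas list had 1 higher and 0 lower of 3 tested and sums of 13.5 to 36.0 and 26.01 to 94.7 CPM. The erythrocyte list had 1 higher and 0 lower of 7 tested, with mutant sums of 645 to 5448 CPM. Skeletal muscle (8 tested) and neuron genes (1 tested) had median log2 fold changes of -1.55 and 1.103 and no call in the main edgeR fit, where 5 and 1 had an unadjusted p under 0.05. DESeq2 called 1 muscle gene lower and 1 neuron gene higher, and voom quality weights called 0 and 1.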
